A study of Mus musculus with 21 samples.

Results

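The 10 genes described here make, trim, transport and display the peptides of MHC class I: the classical heavy chain genes H2-K1 and H2-D1, the light chain gene B2m, the peptide transporter genes Tap1 and Tap2, Tapbp, which encodes the loading chaperone tapasin, the immunoproteasome genes Psmb8, Psmb9 and Psmb10, and Nlrc5, which encodes the activator of class I transcription. They were taken by gene name from the 41608 genes of the deposited count table, and all 10 were found there. The RNA libraries came from immortalized fibroblasts of mouse embryos (MEFs), in 4 groups of 3. A line stably expressing V5-tagged GCN5, a histone acetyltransferase, was given Hsf1 siRNA (siHsf1 GCN5) or control siRNA (siControl GCN5). A line stably expressing LacZ was given Hsf1 siRNA (siHsf1 LacZ) or control siRNA (siControl LacZ). All 4 groups were transfected at 10 nM for 2 days, so each control also carries an siRNA and an added protein. The labels call the libraries triplicates without saying that they were separate cultures, so the p-values measure only how far libraries differ, which may be technical. The labels name neither the mouse strain, nor whether each line is a clone, nor the species of the GCN5 construct. A second assay, CUT&RUN, in which a nuclease tethered by an antibody cuts DNA beside a bound protein, located c-MYC. It was run in MEFs treated for 7 days with 4-hydroxytamoxifen to delete Hsf1 (Hsf1 CKO) or with ethanol (Hsf1 WT), and 1 peak list per genotype was used.

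Class I molecules carry peptides of intracellular proteins to the cell surface for inspection by cytotoxic T cells. The proteasome cuts the peptides, the TAP transporter moves them into the endoplasmic reticulum, and tapasin helps load them. Heavy chains mostly leave for the surface joined to beta-2-microglobulin. Fibroblasts express the pathway at a low basal level, and interferons raise it through STAT and IRF transcription factors, through NLRC5 and by exchanging constitutive proteasome subunits for PSMB8, PSMB9 and PSMB10. HSF1 is the transcription factor of the heat-shock response, and c-MYC is a growth-promoting transcription factor that binds E-box sequences.

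Promoter windows from RefSeq (GRCm38.p6, 250 bases before to 50 bases after each gene's start) were matched by symbol for 8 of the 10 genes, Tap2 and Nlrc5 being the others. The windows of B2m, H2-K1 and H2-D1 are shown because they hold elements by which class I genes are known to be addressed, and that of Psmb10 because its start has a c-MYC peak in both lists. They are printed 5′ to 3′ on the strand of the gene, with the element in capitals. The B2m window holds an interferon-stimulated response element core, GAAANNGAA, at -139 from the start, and the H2-K1 and H2-D1 windows each hold the class I kappa-B letters GGGATTCCC, at -110 and -170. The Psmb10 window holds the E-box CACGTG at -116 and begins from a RefSeq start 62 bases inside the start given in the count table.
B2m (chr2:122147437-122147736, + strand): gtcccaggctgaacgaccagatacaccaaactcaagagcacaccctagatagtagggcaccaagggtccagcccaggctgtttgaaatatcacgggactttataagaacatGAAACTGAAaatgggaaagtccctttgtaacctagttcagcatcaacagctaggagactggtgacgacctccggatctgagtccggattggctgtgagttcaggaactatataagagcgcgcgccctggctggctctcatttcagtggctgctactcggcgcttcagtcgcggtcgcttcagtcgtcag
H2-K1 (chr17:34000298-34000597, - strand): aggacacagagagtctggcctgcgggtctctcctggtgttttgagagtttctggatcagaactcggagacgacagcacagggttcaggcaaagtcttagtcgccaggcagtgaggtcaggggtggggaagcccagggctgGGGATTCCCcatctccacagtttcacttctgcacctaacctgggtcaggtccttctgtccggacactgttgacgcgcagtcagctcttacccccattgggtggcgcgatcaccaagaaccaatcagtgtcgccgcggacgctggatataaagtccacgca
H2-D1 (chr17:35262844-35263143, + strand): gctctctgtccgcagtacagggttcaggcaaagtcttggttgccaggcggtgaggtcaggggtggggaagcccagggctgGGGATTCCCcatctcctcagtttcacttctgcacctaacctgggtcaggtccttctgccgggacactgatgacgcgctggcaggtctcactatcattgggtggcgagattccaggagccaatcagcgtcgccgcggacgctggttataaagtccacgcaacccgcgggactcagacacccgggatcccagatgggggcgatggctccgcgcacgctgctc
Psmb10 (chr8:105938343-105938642, - strand): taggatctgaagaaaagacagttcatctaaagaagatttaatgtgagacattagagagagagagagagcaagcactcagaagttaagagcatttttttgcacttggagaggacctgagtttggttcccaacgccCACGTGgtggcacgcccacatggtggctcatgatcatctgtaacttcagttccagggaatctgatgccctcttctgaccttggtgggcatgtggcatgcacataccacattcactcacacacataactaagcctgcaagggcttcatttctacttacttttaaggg
Both strands were searched in the 32851 RefSeq windows of this length. The kappa-B letters are in 0.353% of them, GAAANNGAA in 8.56%, CACGTG in 7.15% and the heat shock element pair GAANNTTC in 7.86%. None of the capital runs overlaps another searched element. The H2-K1 and H2-D1 windows share an identical run of 47 bases that contains the kappa-B letters. GAANNTTC was found for Tap1 at -39 and for Psmb9 at -194, which is the same site, since these neighbours are transcribed away from each other from overlapping windows. A match is a description of letters, and the binding of STAT, NF-kB or HSF1 was not measured. Only these exact letters were searched, so a window without a match can still hold a variant of the element.

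The libraries held 3.69 to 4.27 M (mega) gene counts in the GCN5 line and 7.22 to 8.16 M in the LacZ line, so that depth and line coincide and cannot be told apart. CPM stands for counts per M counts of a library. For counting error only, a library with no count of a gene is still compatible with 0.368 to 0.812 CPM of it, depending on its depth (3 counts of its total). Tests were run across 12187 genes that passed a count filter, with libraries scaled by ERCC spike-in RNA. A second fit with TMM scaling, which assumes that most genes do not change, stands beside it throughout. The median of all genes was -0.35 (log2) for siHsf1 in the LacZ line by spike-in scaling and 0.02 by TMM, and the dispersion (biological coefficient of variation) was 0.274 and 0.0890. Hsf1 itself averaged 71.8 ± 3.48 TMM-scaled CPM in siHsf1 GCN5 and 132 ± 9.52 in siControl GCN5 libraries, and 53.6 ± 5.14 in siHsf1 LacZ and 130 ± 3.38 in siControl LacZ libraries (SD, n = 3). Of 10 fibroblast markers 8 reached 10 counts in a library, Thy1 had 1 count in all, and Lum was at 0 in all 12 libraries. Fewer cells of a type and less RNA per cell cannot be told apart in such bulk libraries.

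Counts of genes in the class I interval of chromosome 17 went apart between libraries of the same group, which limits every statement on the 7 genes there. These genes, Tapbp, H2-K1, Psmb9, Tap1, Psmb8, Tap2 and H2-D1, lie within 1348 kb (chr17:33919478-35267497, GRCm38). In this interval 25 protein-coding genes had a mean of at least 10 counts, and 24 of them (96%) had a standard deviation between libraries of a group above 0.5 on log2 TMM-scaled CPM. Of the 7, only Tapbp, H2-K1 and H2-D1 are among these 25; Tap1, Tap2, Psmb8 and Psmb9 averaged 6.5 counts or fewer. The median standard deviation was 1.30 there, against 0.139 for the 484 genes on the rest of chromosome 17 and 0.131 for 10361 genes on other chromosomes. Rps18, a ribosomal protein gene in the interval that is used by all cells, had 1173, 145 and 439 counts in siHsf1 GCN5, 271, 1169 and 151 in siControl GCN5, 1271, 2633 and 1399 in siHsf1 LacZ and 2501, 680 and 287 in siControl LacZ libraries. The counts of these genes therefore do not show whether the cells transcribed them at a low level, and the cause was not tested. B2m on chromosome 2 and Psmb10 and Nlrc5 on chromosome 8 had standard deviations of 0.0699, 0.121 and 0.351, and the results rest on these genes.

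**Figure D1:**
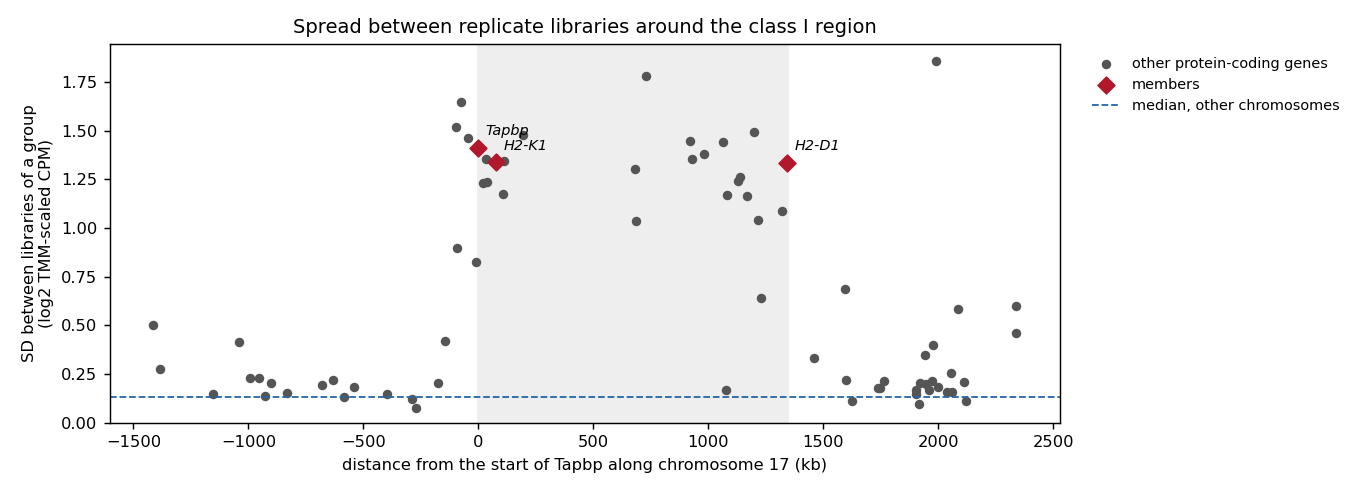
Standard deviation between libraries of the same group (log2 TMM-scaled CPM, pooled over the 4 groups) for protein-coding genes with a mean of at least 10 counts, against distance from the start of Tapbp in kb; the grey band is the interval that holds the 7 genes and the dashed line the median of other chromosomes (0.131). Tapbp, H2-K1 and H2-D1 sit at 1.41, 1.34 and 1.33 among neighbours that are as uneven.

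Per length, B2m was the highest of the 10 genes by a wide margin. The 4 genes of transport and cleavage on chromosome 17 had the lowest values. For genes of the class I interval, H2-K1 and H2-D1 included, such values do not show the level in the cells. In siControl LacZ libraries the deposited FPKM (fragments scaled to gene length and library size) averaged 405 ± 24.8 for B2m, 43.1 ± 5.00 for Psmb10, 4.17 ± 6.49 for H2-D1, 3.49 ± 1.40 for H2-K1 and 1.57 ± 0.170 for Nlrc5 (SD, n = 3). Tapbp followed at 0.433 ± 0.108, Psmb8 at 0.0761 ± 0.0579, Tap1 at 0.0326 ± 0.0135 and Tap2 at 0.0287 ± 0.0157, and Psmb9 is listed at 0 in each of the 3. H2-D1 does not differ from H2-K1 or Nlrc5 beyond its spread in this order, while every library was higher for H2-K1 (2.61 to 5.11) than for Nlrc5 (1.39 to 1.73). Psmb8, Tap1 and Tap2 do not differ beyond their spread. The count filter was passed by 6 of the 10 genes, and Tap1, Tap2, Psmb8 and Psmb9 did not pass.

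The clearest pattern was shared by B2m and Nlrc5: siHsf1 LacZ libraries stood far above the 9 others, and siHsf1 and siControl GCN5 libraries stood close together. B2m (gene 12010; chr2:122147687-122153082) had 250, 259 and 247 TMM-scaled CPM in siHsf1 GCN5, 265, 293 and 297 in siControl GCN5, 764, 819 and 812 in siHsf1 LacZ and 357, 371 and 330 in siControl LacZ libraries. No group overlapped siHsf1 LacZ, and siHsf1 GCN5 lay below siControl GCN5. Nlrc5 (gene 434341; chr8:94434354-94527272) had 5.76, 5.31 and 3.04 TMM-scaled CPM in siHsf1 GCN5, 3.51, 5.96 and 2.76 in siControl GCN5, 46.7, 52.9 and 45.0 in siHsf1 LacZ and 12.8, 11.1 and 13.9 in siControl LacZ libraries. The GCN5 groups of Nlrc5 overlapped, on 10 to 24 counts a library, and both lay below every LacZ library. Psmb10 (gene 19171; chr8:105935728-105938454) moved within a narrower range, with 57.3, 56.9 and 63.9 TMM-scaled CPM in siHsf1 GCN5, 66.9, 79.1 and 75.7 in siControl GCN5, 77.5, 85.7 and 87.9 in siHsf1 LacZ and 62.7, 77.0 and 64.4 in siControl LacZ libraries. For Psmb10 siHsf1 was above siControl in the LacZ line and below it in the GCN5 line, without overlap in either.

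**Figure D2:**
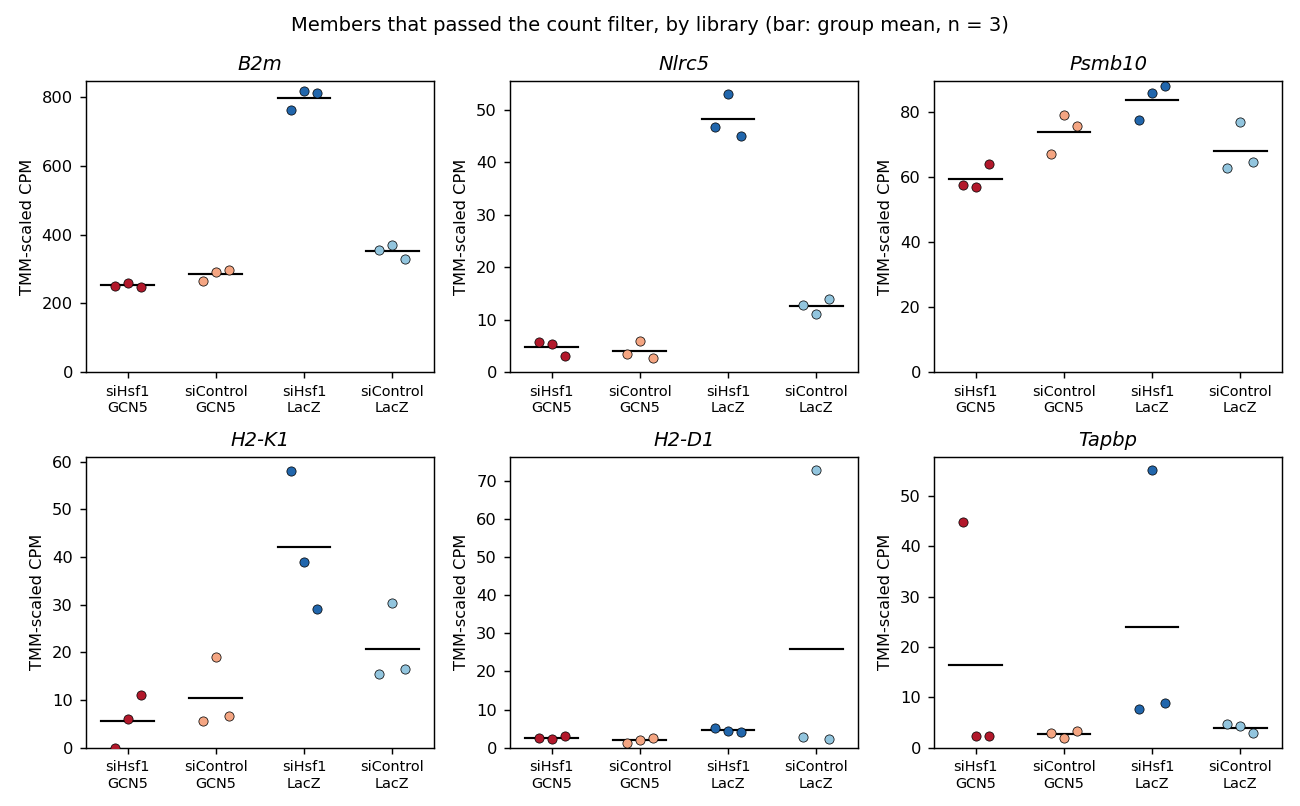
TMM-scaled CPM of the 6 genes that passed the count filter in each of the 12 libraries (points) with group means (bars, n = 3); axes start at 0. B2m averaged 798 in siHsf1 LacZ and 352 in siControl LacZ libraries, and single libraries of H2-D1 (72.7) and Tapbp (55.2 and 44.9) stand far from their groups.

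Loss of Hsf1 and other effects of its siRNA cannot be told apart, since each line has only a control siRNA to compare. The LacZ line shows the change with Hsf1 siRNA where no GCN5 is added. There, Nlrc5 rose under both scalings and B2m and Psmb10 rose under TMM scaling. Of the 6 genes tested, spike-in scaling called 1 higher and 0 lower, where 0.993% of all genes were called higher and 6.03% lower, and TMM called 3 higher and 0 lower, where 21.1% and 19.5% were called. The median log2 fold change of the 6 was 0.80 by spike-in and 1.10 by TMM scaling, beside -0.35 and 0.02 for all genes. Nlrc5 averaged 46.3 ± 13.3 spike-scaled CPM in siHsf1 LacZ and 16.0 ± 5.14 in siControl LacZ libraries, a 2.91-fold rise (log2 1.54 ± 0.33 SE, edgeR adjusted p = 0.00054); with TMM scaling the log2 change was 1.94 ± 0.15 (SE, edgeR adjusted p = 1.8e-10). B2m averaged 771 ± 226 spike-scaled CPM in siHsf1 LacZ and 442 ± 119 in siControl LacZ libraries (log2 0.80 ± 0.32 SE, edgeR adjusted p = 0.10), and the libraries overlapped on this scale. Without siHsf1 LacZ replicate 2 this value was 0.998 (edgeR adjusted p = 0.034). With TMM scaling B2m rose 2.27-fold (log2 1.18 ± 0.06 SE, edgeR adjusted p = 1.7e-13). Psmb10 had log2 -0.06 ± 0.32 (SE, edgeR adjusted p = 0.92) by spike-in scaling and rose by TMM (log2 0.30 ± 0.09 SE, edgeR adjusted p = 0.0073), and without siControl LacZ replicate 1 the TMM value was 0.23 (edgeR adjusted p = 0.063). A direction for Psmb10 thus rests on the scaling.

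Reads of H2-K1 (gene 14972; chr17:33996012-34000341) can be shared with similar heavy chain genes, and the part of this in its uneven counts was not tested. The standard deviation between libraries of a group was 1.34 for H2-K1 and 1.35 for its neighbour Rps18. It was 0.331, 0.209 and 0.112 for the heavy chain genes H2-Q4, H2-T23 and H2-T22, which lie beyond the interval. H2-K1 had 422, 331 and 239 counts in siHsf1 LacZ and 113, 240 and 133 in siControl LacZ libraries. These groups overlapped, and the change was not called (log2 0.80 ± 0.73 SE by spike-in, edgeR adjusted p = 0.54; 1.01 ± 0.56 SE by TMM, edgeR adjusted p = 0.19). H2-D1 (gene 14964; chr17:35263094-35267497) had 38, 38 and 34 counts in siHsf1 LacZ and 21, 576 and 19 in siControl LacZ libraries, so that 1 control library holds most of its counts. Tapbp (gene 21356; chr17:33919478-33929290) had 56, 469 and 73 counts in siHsf1 LacZ and 34, 35 and 23 in siControl LacZ libraries. H2-D1 and Tapbp were not called in any comparison under either scaling when all 12 libraries were fitted, and in both a single library sets the group mean. Fitted on the 6 LacZ libraries alone, Tapbp was called higher by spike-in scaling (log2 1.90, edgeR adjusted p = 0.0067). Without siControl LacZ replicate 2, the library with 576 counts, H2-D1 had a log2 change of 0.27 by spike-in (edgeR adjusted p = 0.68) and 0.81 by TMM scaling (edgeR adjusted p = 0.039), and without replicate 3 it had -3.05 (edgeR adjusted p = 4.9e-08) and -3.04 (edgeR adjusted p = 0.045). Of the genes that did not pass the filter, Tap1 (gene 21354) had 5, 5 and 40 counts in siHsf1 LacZ and 2, 4 and 2 in siControl LacZ libraries, and Psmb8 (gene 16913) had 4, 8 and 47 in siHsf1 LacZ and 2, 5 and 1 in siControl LacZ libraries. Replicate 3 of siHsf1 LacZ holds most counts of Tap1 and of Psmb8. Tap2 (gene 21355) had 0 to 6 counts over the 12 libraries, and Psmb9 (gene 16912) had 0 or 1, which at these depths shows neither a difference nor its absence.

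After Hsf1 knockdown in the GCN5 line, no gene of the 6 was called in either direction by spike-in or by TMM scaling. Over all genes edgeR called 0.0328% higher and 0.00821% lower by spike-in scaling (111 genes at an unadjusted p under 0.05) and 0.0656% and 0.0985% by TMM (1177 genes). Nlrc5 averaged 4.70 ± 1.45 TMM-scaled CPM in siHsf1 GCN5 and 4.08 ± 1.67 in siControl GCN5 libraries, a log2 change of 0.20, with 2 SE either side reaching from -0.36 to 0.76. B2m averaged 252 ± 6.51 in siHsf1 GCN5 and 285 ± 16.95 in siControl GCN5 libraries. Its log2 change was -0.18, with 2 SE either side reaching from -0.30 to -0.05 (edgeR adjusted p = 0.39). The upper ends of both ranges lie below the TMM changes of these genes in the LacZ line. Psmb10 averaged 59.4 ± 3.93 in siHsf1 GCN5 and 73.9 ± 6.28 in siControl GCN5 libraries (log2 -0.31 ± 0.10 SE, edgeR adjusted p = 0.29). H2-K1 had 0, 24 and 47 counts in siHsf1 GCN5 and 21, 70 and 24 in siControl GCN5 libraries, which overlapped. Tapbp had 187, 9 and 10 counts in siHsf1 GCN5 and 11, 7 and 12 in siControl GCN5 libraries, again with 1 library apart, and H2-D1 had 11, 9 and 13 in siHsf1 GCN5 and 5, 7 and 9 in siControl GCN5 libraries. Tap1 had 0 counts in all 3 siHsf1 GCN5 libraries and 1, 0 and 0 in siControl GCN5 libraries.

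The difference between the knockdown effects, tested as the interaction of siHsf1 and GCN5, was negative for B2m, Psmb10 and Nlrc5. Of the fits of 4 group means, the one with TMM scaling called it and the one with spike-in scaling did not. TMM called 0 of the 6 genes higher and 3 lower, where 11% of all genes were called in each direction, and spike-in scaling called 0 and 0, where 0.172% were called higher and 0.222% lower (924 genes at an unadjusted p under 0.05). B2m had -1.36 ± 0.09 (log2, SE, edgeR adjusted p = 6.3e-11) by TMM and -1.003 ± 0.45 (SE, edgeR adjusted p = 0.55) by spike-in scaling. Nlrc5 had -1.74 ± 0.32 (SE, edgeR adjusted p = 0.00032) by TMM and -1.31 ± 0.53 (SE, edgeR adjusted p = 0.47) by spike-in scaling. Psmb10 had -0.61 ± 0.13 (SE, edgeR adjusted p = 0.0012) by TMM and -0.28 ± 0.45 (SE, edgeR adjusted p = 0.88) by spike-in scaling. The median over all genes was 0.32 by spike-in and -0.02 by TMM scaling in this comparison. Hsf1 itself had 0.41 ± 0.11 (SE, edgeR adjusted p = 0.011) by TMM and 0.72 ± 0.45 (SE, edgeR adjusted p = 0.76) by spike-in scaling. The knockdown was thus weaker in the GCN5 line by TMM, and the part of this in the interactions was not tested.

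Between the lines, Nlrc5 was lower in the GCN5 line under both siRNAs and both scalings, and B2m was lower with siHsf1 under both scalings. These comparisons share their libraries with the knockdown comparisons, and depth moves with the line. With siControl, Nlrc5 averaged 3.73 ± 1.01 spike-scaled CPM in siControl GCN5 and 16.0 ± 5.14 in siControl LacZ libraries (log2 -2.07 ± 0.38 SE, edgeR adjusted p = 2.5e-05; TMM -1.62 ± 0.22 SE, edgeR adjusted p = 1.6e-05). B2m averaged 270 ± 42.3 spike-scaled CPM in siControl GCN5 and 442 ± 119 in siControl LacZ libraries, which was not called (log2 -0.71 ± 0.32 SE, edgeR adjusted p = 0.37), and with TMM it fell by 0.31 on the log2 scale (-0.31 ± 0.06 SE, edgeR adjusted p = 0.0013). Of the 6 genes, spike-in scaling called 0 higher and 1 lower (0.542% and 0.96% of all genes), and TMM called 0 and 2 (5.46% and 4.15%). With siHsf1, Nlrc5 averaged 4.48 ± 1.80 spike-scaled CPM in siHsf1 GCN5 and 46.3 ± 13.3 in siHsf1 LacZ libraries (log2 -3.38 ± 0.38 SE, edgeR adjusted p = 2.8e-16), and B2m averaged 235 ± 32.7 in siHsf1 GCN5 and 771 ± 226 in siHsf1 LacZ libraries (log2 -1.71 ± 0.32 SE, edgeR adjusted p = 1.2e-05). With TMM these were -3.36 ± 0.19 (SE, edgeR adjusted p = 6e-13) for Nlrc5 and -1.66 ± 0.06 (SE, edgeR adjusted p = 3.2e-16) for B2m. H2-K1 averaged 4.93 ± 4.49 spike-scaled CPM in siHsf1 GCN5 and 43.1 ± 28.5 in siHsf1 LacZ libraries (log2 -3.08 ± 0.83 SE, edgeR adjusted p = 0.071), and it was called by TMM (-2.87 ± 0.73 SE, edgeR adjusted p = 0.013), within a region whose counts are uneven. Psmb10 was called by TMM alone (-0.50 ± 0.09 SE, edgeR adjusted p = 1e-04; spike-in -0.55 ± 0.32 SE, edgeR adjusted p = 0.45). In this comparison spike-in scaling called 0 of the 6 higher and 2 lower (1.82% and 3.62% of all genes), and TMM called 0 and 4 (22.2% and 22.6%).

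**Figure D3:**
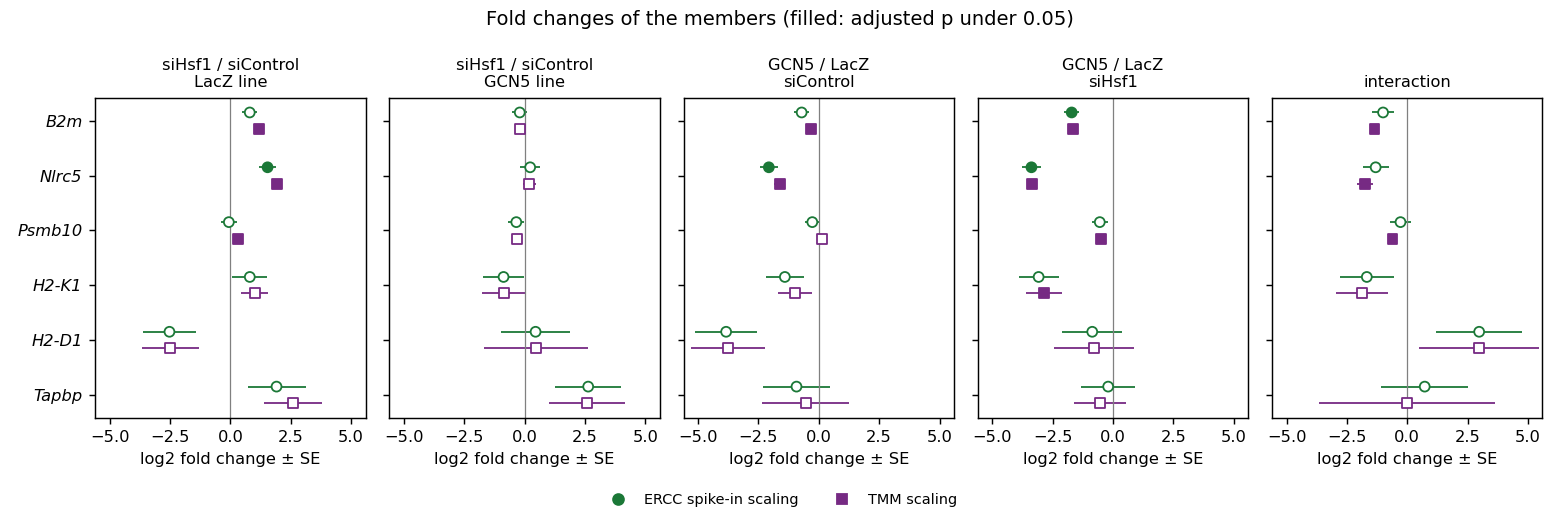
Log2 fold changes with their standard errors (n = 3 libraries per group) of the 6 tested genes in the 4 comparisons and the interaction, for spike-in scaling (circles) and TMM scaling (squares); filled symbols have an adjusted p under 0.05. Nlrc5 is filled under both scalings in every panel but the GCN5 line knockdown (0.23 and 0.20) and the interaction, where spike-in scaling gave -1.31, and H2-D1 and Tapbp are open throughout with wide errors.

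Immunoproteasome subunits take the place of constitutive subunits, and only Psmb10 could be set against its counterpart Psmb7 in all libraries. The ratio of Psmb10 to Psmb7 in FPKM needs no scaling between libraries. It was 0.144, 0.146 and 0.165 in siHsf1 GCN5 and 0.170, 0.185 and 0.198 in siControl GCN5 libraries, and 0.254, 0.259 and 0.283 in siHsf1 LacZ and 0.183, 0.196 and 0.197 in siControl LacZ libraries. The groups of each line did not overlap, with siHsf1 lower in the GCN5 line and higher in the LacZ line. A ratio moves with either gene. In the LacZ line Psmb7 had log2 -0.53 by spike-in (edgeR adjusted p = 0.31) and -0.17 by TMM scaling (edgeR adjusted p = 0.048). Psmb10 had -0.06 and 0.30 there. In the GCN5 line Psmb7 had -0.06 and -0.03, and Psmb10 had -0.34 and -0.31. The higher ratio in the LacZ line is therefore not a measure of Psmb10 alone. The log2 difference was -0.28 in the GCN5 line and 0.47 in the LacZ line, each with p = 0.1 by an exact two-sided permutation test, the smallest that 3 against 3 libraries allow. With 3 such tests on FPKM, the adjusted value was also 0.1. The third test, on the ratio of Psmb8 to Psmb5, rests on 1 to 47 counts of Psmb8 in the LacZ line and gave the same p, with ratios of 0.00109, 0.00170 and 0.0107 in siHsf1 LacZ and 0.000482, 0.000866 and 0.000221 in siControl LacZ libraries. Psmb9 was at 0 in most libraries, so no FPKM ratio of Psmb9 to Psmb6 could be tested, and Psmb6 itself ran from 5 to 715 counts over the 12 libraries. With 0.5 added to each count all 6 ratios could be tested, and none fell below an exact permutation p of 0.1, with adjusted values of 0.2 to 0.4.

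Among 24 tested regulators of class I genes, Irf7, Stat2 and Irf9, factors of the interferon response, rose in the LacZ line as Nlrc5 did. Spike-in scaling called 4 higher and 0 lower after the knockdown in the LacZ line, where 0.993% and 6.03% of all genes were called. TMM called 9 higher and 2 lower, where 21.1% and 19.5% of all genes were called. Irf7, which amplifies interferon production, averaged 178 ± 41.2 spike-scaled CPM in siHsf1 LacZ and 32.8 ± 6.96 in siControl LacZ libraries (SD, n = 3). Stat2, a signal transducer of the type I interferon pathway, rose 2.67-fold (log2 1.41 ± 0.32 SE, edgeR adjusted p = 0.0012). Irf9, the DNA-binding partner of STAT2, was also called and is named after its values were seen (log2 1.34 ± 0.32 SE, edgeR adjusted p = 0.0025). Irf7, Stat2 and Irf9 were called with each library left out in turn. In the GCN5 line none of the 24 was called under either scaling. Of all genes there, spike-in scaling called 0.0328% higher and 0.00821% lower, and TMM 0.0656% and 0.0985%, so few calls were open to any list. The interaction of Irf7 was called under both scalings (log2 -2.72 ± 0.48 SE by spike-in, edgeR adjusted p = 2.5e-05).

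Of 8 tested class I and class I-like genes other than the members, spike-in scaling called 1 higher and TMM 5 higher in the LacZ line, with 0 lower under both and medians of 0.12 and 0.48. Of all genes, spike-in scaling called 0.993% higher and 6.03% lower, and TMM 21.1% and 19.5%. The medians of all genes were -0.35 and 0.02. H2-Q4, a nonclassical heavy chain gene, averaged 34.7 ± 6.97 spike-scaled CPM in siHsf1 LacZ and 14.8 ± 3.18 in siControl LacZ libraries (log2 1.23 ± 0.33 SE, edgeR adjusted p = 0.0093). This call was lost without siHsf1 LacZ replicate 3 (log2 1.28, edgeR adjusted p = 0.062) and without siControl LacZ replicate 3 (log2 1.13, edgeR adjusted p = 0.099). H2-T23, which encodes Qa-1, averaged 55.7 ± 1.40 TMM-scaled CPM in siHsf1 LacZ and 24.4 ± 2.76 in siControl LacZ libraries and was called by TMM (log2 1.19 ± 0.12 SE, edgeR adjusted p = 1.9e-08; spike-in 0.84 ± 0.32 SE, edgeR adjusted p = 0.089). H2-T22, a further nonclassical gene, had 0.47 ± 0.08 (log2 by TMM, SE, edgeR adjusted p = 4.3e-05; spike-in 0.11 ± 0.32 SE, edgeR adjusted p = 0.86). Heavy chain genes resemble each other, and the sources used here do not say how reads with several matches were counted, so these values are uncertain between family members. In the GCN5 line H2-Q4 averaged 6.01 ± 2.70 spike-scaled CPM in siHsf1 GCN5 and 10.0 ± 2.21 in siControl GCN5 libraries, which was not called (log2 -0.75 ± 0.37 SE, edgeR adjusted p = 1), and its interaction was called by both scalings (-1.99 ± 0.50 SE by spike-in, edgeR adjusted p = 0.023). By spike-in scaling the interaction was no longer called when any of 5 single libraries was left out: siHsf1 GCN5 replicate 1 or 3, siControl GCN5 replicate 3, siHsf1 LacZ replicate 3 or siControl LacZ replicate 3 (edgeR adjusted p of 0.074 to 0.27).

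Among interferons, their receptors and the receptor kinases, 9 genes were tested. TMM called 6 higher and 0 lower in the LacZ line and spike-in scaling called 0, with medians of 0.32 and -0.07, beside 21.1% and 0.993% of all genes called higher. Ifngr1, the ligand-binding chain of the interferon gamma receptor, averaged 142 ± 3.34 TMM-scaled CPM in siHsf1 LacZ and 75.1 ± 4.64 in siControl LacZ libraries (log2 0.92 ± 0.07 SE, edgeR adjusted p = 1.1e-10; spike-in 0.54 ± 0.32 SE, edgeR adjusted p = 0.31). Ifnar2, a chain of the type I receptor, had 0.41 ± 0.07 (log2 by TMM, SE, edgeR adjusted p = 3.2e-05) and 0.03 by spike-in scaling (edgeR adjusted p = 0.96). Jak2, a receptor kinase, had 0.57 ± 0.10 by TMM (SE, edgeR adjusted p = 0.00011) and 0.20 by spike-in scaling (edgeR adjusted p = 0.72). Ifnb1, the interferon that fibroblasts typically make, had 4 counts in all over the 3 siHsf1 LacZ libraries and 0 over the other 9. Class II genes were near 0: only Cd74, the invariant chain, of 12 passed the filter, and Ciita, the class II activator related to Nlrc5, had 3 counts in all in siHsf1 LacZ, 1 in siControl LacZ and 0 in GCN5 libraries. Summed haematopoietic markers moved with the members, at 4.80 to 6.32 TMM-scaled CPM in siHsf1 GCN5, 5.96 to 6.74 in siControl GCN5, 11.98 to 14.4 in siHsf1 LacZ and 6.82 to 8.92 in siControl LacZ libraries. Of the 12 markers 2 reached 10 counts in a library, the defining markers Adgre1, Itgam, Cd3e and Flt3 were at 0 in every library, and Cd68 alone averaged 6.83. Other marker sums moved in the same comparison. The sum of 10 fibroblast markers was 8808 to 10234 TMM-scaled CPM in siHsf1 LacZ and 6106 to 6884 in siControl LacZ libraries. The sum of 5 epithelial markers, nearly all of it Krt19, was 67.7 to 87.6 in siHsf1 LacZ and 126.6 to 149.3 in siControl LacZ libraries, with Epcam at 0 in every library. The part of such cells in the results was not tested.

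Genes of the constitutive steps of the pathway were mostly lower where TMM called them in the LacZ line. Of 23 tested genes of the 20S core, its activators and its assembly factors, TMM called 0 higher and 10 lower in the LacZ line and spike-in scaling called 0 and 1, with medians of -0.18 and -0.54. Of all genes 19.5% were called lower by TMM and 6.03% by spike-in scaling, so that the spike-in count lies below the share over all genes. Psme3, the nuclear PA28 gamma activator, averaged 173 ± 56.5 spike-scaled CPM in siHsf1 LacZ and 370 ± 101 in siControl LacZ libraries (log2 -1.10 ± 0.32 SE, edgeR adjusted p = 0.018). Of 10 peptidases that trim or destroy peptides, spike-in scaling called 0 higher and 3 lower and TMM 1 higher and 5 lower. The 3 were Thop1 (log2 -1.27 ± 0.32 SE, edgeR adjusted p = 0.0054) and Prep (-1.01 ± 0.32 SE, edgeR adjusted p = 0.033), both oligopeptidases, and Blmh, bleomycin hydrolase (-0.96 ± 0.32 SE, edgeR adjusted p = 0.045). Psme3, Prep and Blmh were no longer called by spike-in scaling without siHsf1 LacZ replicate 2 or 3 or siControl LacZ replicate 1 or 3 (edgeR adjusted p of 0.075 to 0.27). Thop1 was no longer called without siHsf1 LacZ replicate 3 (edgeR adjusted p = 0.12) or siControl LacZ replicate 1 (edgeR adjusted p = 0.080). Of 13 genes of loading and quality control in the endoplasmic reticulum, spike-in scaling called 0 and TMM 1 higher and 7 lower, among them Calr, calreticulin (log2 -0.30 ± 0.06 SE by TMM, edgeR adjusted p = 0.00015; spike-in -0.64 ± 0.31 SE, edgeR adjusted p = 0.21). In the GCN5 line 0 genes of these lists were called after the knockdown under either scaling. Of all genes there, spike-in scaling called 0.0328% higher and 0.00821% lower, and TMM 0.0656% and 0.0985%.

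**Figure D4:**
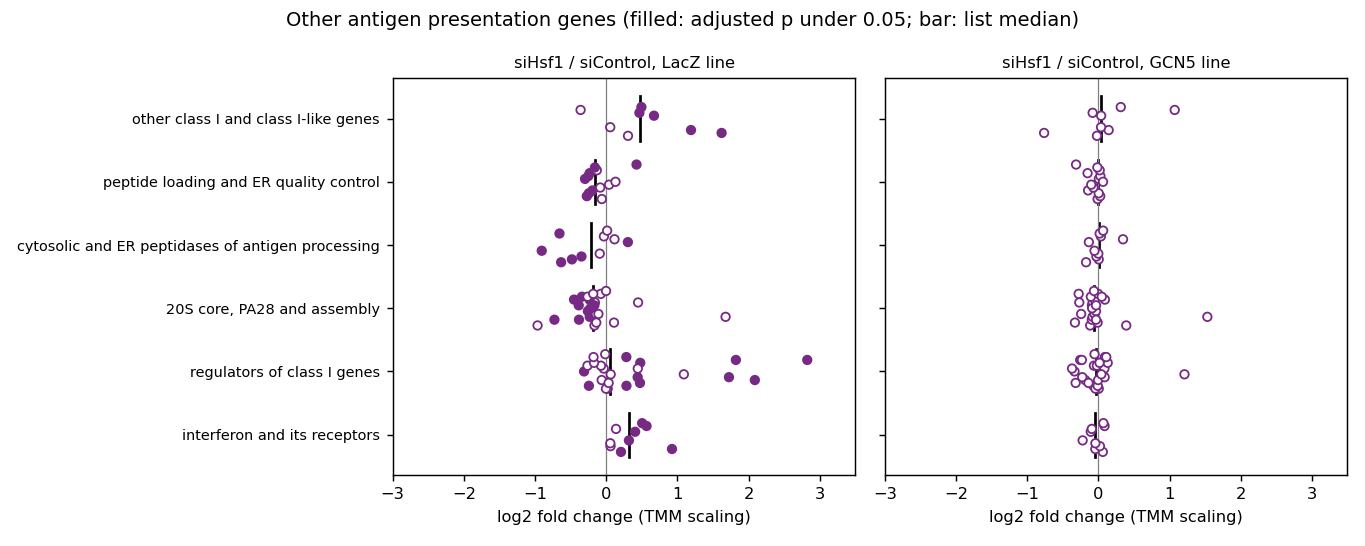
Log2 fold changes by TMM scaling of the tested genes of 6 lists after Hsf1 knockdown in the LacZ line (left) and in the GCN5 line (right), with filled points for an adjusted p under 0.05 and bars for list medians. In the LacZ line medians run from -0.22 (peptidases) to 0.48 (other class I genes), beside 0.02 for all genes. No point is filled in the GCN5 line, where TMM called 0.0656% of all genes higher and 0.0985% lower.

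Genes whose profile over the 12 libraries lay closest to the members were found by the root-mean-square difference of centred log2 TMM-scaled CPM from the median profile of the members. Against the 6 tested members the closest of 10179 protein-coding genes were Ddit3, Apol9a, Uap1l1, Slc38a7 and Lgals9, at 0.180 to 0.218, where the median of all was 0.712. Against B2m, Psmb10 and Nlrc5 alone, a profile chosen after the uneven counts were seen, they were Apol9a, C1ra, Ifitm3, Rasl11a and Ifi27, at 0.0802 to 0.123. Apol9a led or came second in both and averaged 127 TMM-scaled CPM in siHsf1 GCN5, 138 in siControl GCN5, 417 in siHsf1 LacZ and 185 in siControl LacZ libraries.

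c-MYC peaks lay at the starts of few of the 10 genes in the Hsf1 CKO list and of most in the Hsf1 WT list. Within 1000 bases of a start, the Hsf1 CKO list had a peak at 1 of 10 genes, Psmb10, where 37.0% of 11061 tested protein-coding genes had one. The Hsf1 WT list had a peak at 7 of 10, H2-K1, H2-D1, B2m, Tap2, Psmb8, Psmb10 and Nlrc5, where 79.6% of all had one. A peak in the Hsf1 WT list and none in the Hsf1 CKO list was found at 6 of 10, where 43.6% of all had this. These shares are over tested genes, and of the 6 members that were tested 1 had a peak in the Hsf1 CKO list, 5 had one in the Hsf1 WT list and 4 had one in the Hsf1 WT list alone. The lists differ in size, with 6386 peaks over 11.5 Mb for Hsf1 CKO and 220037 peaks over 510 Mb for Hsf1 WT, and with 1 list per genotype no such difference has a replicate check. Coverage values are those the authors gave for each peak and describe peaks within a list.

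The Psmb10 peak of the Hsf1 CKO list spans chr8:105936179-105939236, with a summed coverage of 5.25 and a maximum of 0.00469, at percentile 70.5 of its list. The Psmb10 peak of the Hsf1 WT list spans chr8:105935437-105940288, with a summed coverage of 14.8 and a maximum of 0.0110, at percentile 99.4 of its list. The maxima lie 130 and 126 bases inside the gene, counted from the start in the count table, and the E-box shown above lies under both peaks. The Nlrc5 and B2m peaks of the Hsf1 WT list had maxima of 0.00548 and 0.00479, at percentiles 87.1 and 75.9 of the list, and these maxima lie at -350 and -194 from the starts. The nearest peaks of the Hsf1 CKO list to Nlrc5 and B2m were 46036 and 15855 bases away. Tap1, Tapbp and Psmb9 had no peak within 1000 bases in either list, and all 10 genes had a peak of the Hsf1 WT list within 5000 bases, where 88.9% of the tested protein-coding genes had one.

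**Figure D5:**
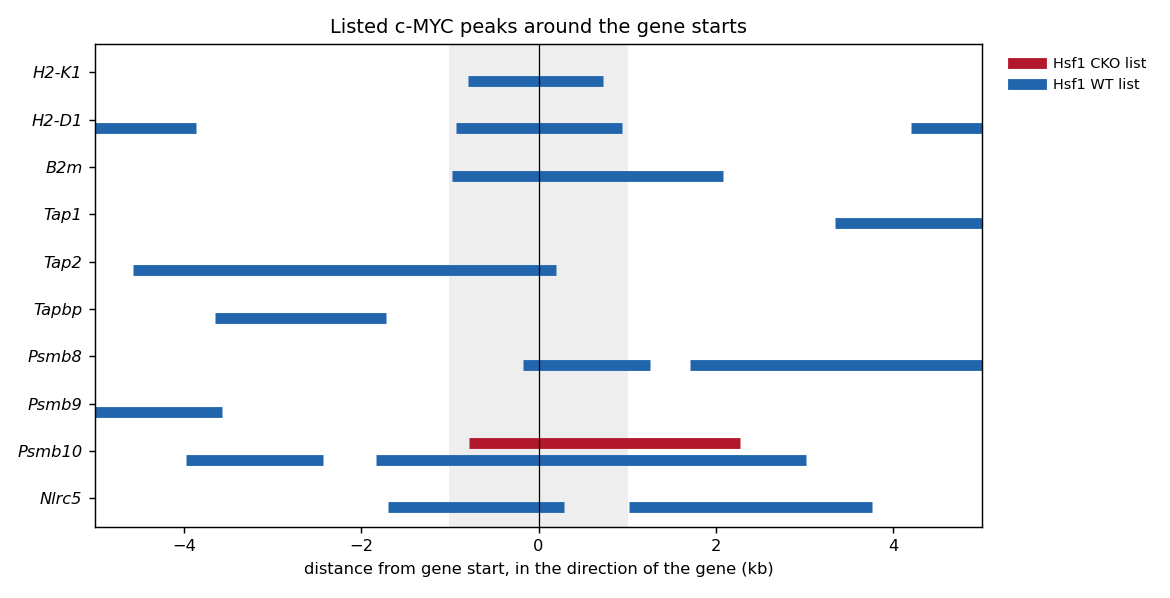
Listed c-MYC peaks (bars) within 5 kb of the starts of the 10 genes, drawn in the direction of each gene, for the Hsf1 CKO list (upper bar of a gene) and the Hsf1 WT list (lower bar); the grey band is the window of 1 kb on each side. The Psmb10 start is the only one under a bar of the Hsf1 CKO list, and bars of the Hsf1 WT list reach the band at 7 of 10 genes.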

How the data were processed

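The authors deposited whole-number counts per gene for 41608 genes with 92 ERCC spike-in transcripts, and a table of FPKM for the same genes; the labels name ERCC mix 1 for siControl and mix 2 for siHsf1 libraries. Per the submitters' processing notes, HISAT2, Bowtie2, DESeq2 and SEACR were used on GRCm38 or mm10. Not given in the sources used here are the versions, the counting program, its strand setting and its treatment of reads with several matches. For each c-MYC peak the authors deposited a signal, its summed coverage, and a score, its highest coverage. Whether replicates were pooled is not stated.

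Counts were tested in R 4.3.3 with edgeR 4.0.16 (robust quasi-likelihood, 4 group means, 8 residual degrees of freedom, two-sided, Benjamini-Hochberg over all genes, calls at an adjusted p under 0.05). The filterByExpr minimum of 10 counts left 12187 genes. Libraries were scaled by the 23 ERCC transcripts of subgroup B, equal in both mixes, because the series names that control; factors ran from 0.616 to 1.56, against 0.980 to 1.04 for TMM. ERCC transcripts took 0.711% to 1.65% of counts. Total gene counts were 3.69 to 8.16 M per library. FPKM, not tested across genes, served for levels between genes and for ratios. The test was checked before use on simulated counts with an equal spike-in share in every library. It was not checked at the uneven spike-in factors of these libraries, nor at the wider dispersion that goes with them.

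The members and lists were chosen with earlier results of these data known. Named genes are the members; the 5 nearest profiles (mean log2 CPM of at least 2); from each list up to 3 called genes of smallest p, or 1 if none is called, in the LacZ line knockdown, taken under each scaling; and Hsf1. Of the label checks, Kat2a (GCN5) was not shown to be higher in the GCN5 line with siControl (log2 0.19 by TMM, edgeR adjusted p = 0.051; -0.20 by spike-in, edgeR adjusted p = 0.64). It averaged 248 ± 3.96 TMM-scaled CPM in siHsf1 GCN5, 247 ± 14.5 in siControl GCN5, 124 ± 6.30 in siHsf1 LacZ and 217 ± 2.80 in siControl LacZ libraries, and Myc 147 ± 9.99, 121 ± 11.3, 92.3 ± 6.20 and 140 ± 8.77 in the same groups (SD, n = 3). The 4 samples with control or Myc siRNA at 100 nM and the IgG sample were not analysed here. Alternatives were other scalings, DESeq2 1.42.0, no filter, a replicate block, the 6 libraries compared alone, and leaving out each library.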

Additional observations from a re-analysis of the deposited data

Results flagged for a closer look

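The response to Hsf1 knockdown differed between the lines for 3 of the 6 tested genes by the interaction test under TMM scaling (edgeR), where 11% of all genes were called in each direction. The log2 difference, GCN5 line minus LacZ line, was -1.36 ± 0.09 for B2m (SE, edgeR adjusted p = 6.3e-11), -0.61 ± 0.13 for Psmb10 (SE, edgeR adjusted p = 0.0012) and -1.74 ± 0.32 for Nlrc5 (SE, edgeR adjusted p = 0.00032). In the same fit with spike-in scaling no such difference was called for these genes. The sequencing depth of the lines differs as their labels do, and its part was not tested. Hsf1 itself fell less in the GCN5 line (log2 -0.88 ± 0.08 SE by TMM) than in the LacZ line (-1.28 ± 0.08 SE). Its interaction was 0.41 ± 0.11 by TMM (SE, edgeR adjusted p = 0.011). The part of this weaker knockdown was not tested.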

How the results depend on the processing

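For B2m, Psmb10 and Nlrc5 the calls moved mainly with the scaling. In the LacZ line knockdown 1 of the 6 tested genes was called higher by spike-in scaling; the count was 3 by TMM, by DESeq2 with its own size factors and with a replicate block by TMM, and 2 by DESeq2 with spike-in factors and by the spike-in replicate block (both B2m and Nlrc5), with the 6 libraries alone (Tapbp and Nlrc5) and with no filter, where Psmb8 was added. For the line with siControl 1 was lower, and 2 by TMM, DESeq2 with its own factors, either replicate block and the 6 libraries alone (there H2-K1, edgeR adjusted p = 0.011); for the line with siHsf1 2 were lower, and 4 by TMM, DESeq2 with its own factors and the TMM block, and 4 with no filter, where Tap1 and Psmb8, which fail the count filter, were added. For the interaction 0 were lower, and 3 by TMM, DESeq2 with its own factors and the TMM block, 2 by the spike-in replicate block (B2m -0.98 and Nlrc5 -1.35, edgeR adjusted p = 0.025 for each) and 1 with no filter (Psmb8). The spike-in block also called Ifngr1 in the LacZ line knockdown (edgeR adjusted p = 0.040). With the genes on chromosomes 2 and 8 alone, an alternative chosen after seeing the data, TMM gave 3, 2 and 3 calls in the LacZ knockdown, the line with siControl and the interaction. On TMM-scaled values, deviations from group means of same-numbered libraries correlated at -0.063 to 0.106. TMM takes out differences in spike-in share, so these values cannot show whether the numbers pair libraries by spike-in scaling. Replicate 1 had the lowest subgroup B share of counts in every group. It was 0.229% in siHsf1 GCN5, 0.197% in siControl GCN5, 0.177% in siHsf1 LacZ and 0.142% in siControl LacZ libraries.

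Psmb10 changed direction with scaling. In the LacZ line knockdown it had -0.06 by spike-in and 0.30 by TMM, 0.29 by DESeq2 and 0.30 by the TMM block, and for the line with siControl -0.27 by spike-in, 0.12 by TMM, 0.11 by DESeq2 and 0.12 by the TMM block. Leaving out libraries gave 0.23 to 0.40 and 0.06 to 0.22 by TMM. By spike-in it gave -0.37 to -0.11 for the line with siControl and -0.26 to 0.13 in the LacZ line knockdown, positive without siHsf1 LacZ replicate 2 (0.13) or siControl LacZ replicate 1 (0.09). Nlrc5 in the GCN5 line ran from -0.0078 to 0.58 by TMM, negative only without siControl GCN5 replicate 3. Without siHsf1 LacZ replicate 2, B2m was called in the LacZ line by spike-in (log2 1.00, edgeR adjusted p = 0.034).

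With a library left out, spike-in scaling called 1 to 2 genes higher and 0 to 1 lower in the LacZ knockdown, 1 to 2 lower for the line with siControl, 2 to 5 for the line with siHsf1, and 0 to 1 higher and 0 to 1 lower for the interaction; TMM called 2 to 4 higher and 0 to 1 lower, 2 lower, 4 lower and 3 lower. Groups of 3 libraries and the lower depth of the GCN5 line limit all of these.

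For the genes with uneven counts, single libraries set value and direction. H2-D1 ran from -3.05 to 0.81 in the LacZ line knockdown and from -0.34 to 3.51 in the interaction. Tapbp ran from -0.34 to 3.18 in the GCN5 line knockdown, from -3.37 to 0.99 for the line with siHsf1 and from -2.83 to 1.74 in the interaction, which had -0.0070 by TMM and -0.088 by the TMM block. Without siHsf1 GCN5 replicate 1, Tapbp was called lower for the line with siHsf1 by spike-in (-3.17, edgeR adjusted p = 3.6e-07), and without siControl LacZ replicate 3 H2-D1 was called for the line with siControl (-4.36, edgeR adjusted p = 2e-12) and the interaction (3.501, edgeR adjusted p = 0.00076). H2-K1 was called for the line with siHsf1 by spike-in without siHsf1 GCN5 replicate 1 (-2.52, edgeR adjusted p = 1.9e-06) or 3 (-3.84, edgeR adjusted p = 0.00013) or siHsf1 LacZ replicate 3 (-3.33, edgeR adjusted p = 0.0081). Of the other genes named, H2-T22 ran from -0.16 to 0.49, Ifnar2 from -0.24 to 0.41 and Jak2 from -0.18 to 0.67 in the LacZ line over both scalings. With the 6 libraries alone, Stat2, Irf9, H2-Q4, Psme3, Thop1, Prep and Blmh were not called by spike-in (edgeR adjusted p of 0.063 to 0.29), and with no filter Prep and Blmh were not (0.055 and 0.074). The cause was not tested.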
